A study of Homo sapiens with 12 samples.

Results

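A set of 42 genes for ribosome biogenesis and nucleolar proteins was followed in the human colorectal carcinoma line HCT116, with and without a knockout of the histone demethylase gene KDM3A. The genes were taken from a written list of symbols, chosen by what their proteins do, and the rule uses no measured value. The list was drawn up with earlier results of these data known. All 42 were found among the 26372 gene symbols of the deposited tables, 41 under the listed symbol and UTP4 under its older symbol CIRH1A. Polyadenylated RNA was sequenced from 6 groups, and 1 deposited FPKM value (sequenced fragments divided by gene length and library size) per gene and group was used. The groups were KDM3A knockout (KO) cells in normal culture (KO mock), KO cells moved to medium without serum (KO starved), KO cells given fetal bovine serum after 24 h without it (KO refed), and wild-type (WT) cells in the same 3 states (WT mock, WT starved, WT refed). How long the refed cells had serum before harvest, and whether the KO cells came from 1 clone, are not given in the sources used here. The labels list 12 samples, 2 per group, with no word on whether they were separate cultures and none on how the 2 samples make up the deposited column. So no error between replicates can be given for any value below.

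A ribosome is assembled in and around the nucleolus. RNA polymerase I makes a long precursor RNA, and box C/D and box H/ACA small nucleolar ribonucleoproteins (snoRNPs) modify its nucleotides. Separate sets of factors cut, fold and export the precursors of the small and the large subunit. The genes for these factors are known to be expressed together in growing cells, and many are described targets of the transcription factor MYC, which pairs with MAX on the letters CACGTG (the E-box). Making ribosomes takes up much of the cell's transcription, and serum and nutrient supply are known to regulate it.

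Some facts of the whole data set bear on these genes. KDM3A itself was at 3.15, 3.01 and 3.59 FPKM in mock, starved and refed KO cells, or 7.64%, 17.0% and 18.2% of its WT level in the same state. All 8 epithelial markers were at 1 FPKM or more in every group. Of 16 endothelial markers, 15 stood at least 2-fold above all 5 other groups in WT mock, and 14 were under 1 FPKM everywhere else. Their summed level was 90.2, 68.9 and 70.5 FPKM in mock, starved and refed KO cells, and 290 (WT mock), 57.6 (WT starved) and 49.1 FPKM (WT refed). The 3 highest there in WT mock were EGFL7 at 77.2, VWF at 75.9 and ENG at 33.2 FPKM. EGFL7 was the marker not raised in WT mock. It was at 84.3, 63.8 and 65.1 FPKM in mock, starved and refed KO cells, and 52.5 (WT starved) and 44.2 FPKM (WT refed). EGFL7 thus made up most of the sums outside WT mock. Of 7 fibroblast markers and of 6 leukocyte markers, 1 each was at 1 FPKM or more in any group. WT mock enters every difference from mock and the mock comparison of genotypes, so values without it are given where they differ, and the part of these other transcripts in the results was not tested. WT mock also had the largest FPKM sum, 1.15e+06 against 481036 to 629410 in the other 5 groups, with 54.6% of it in short RNA features (5.68% to 16.5% elsewhere), and 522154 without them (444376 to 593688 elsewhere). The values also shifted as a whole. Over the 13456 features that reached 1 FPKM in any group, the median log2 ratio of (FPKM + 1) was 0.16 for KO over WT, -0.13 for starved over mock, -0.01 for refed over starved and -0.12 for refed over mock, and it was 0.03, -0.03, -0.01 and -0.02 after rescaling each group by its median ratio to all groups.

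All 42 genes were at 1 FPKM or more in each of the 6 groups, so none was lost to the filter. Their median level was 27.5, 28.7 and 34.0 FPKM in KO cells (mock, starved, refed), against 22.7, 23.6 and 28.7 FPKM in WT. That placed the median gene above 78.1% (WT mock) to 84.5% (WT refed) of the features compared. The lowest in every group was UTP20, between 1.15 and 1.84 FPKM, and the highest was NPM1, between 752 and 1073 FPKM. Levels between these ends therefore spanned the range from barely detected to among the abundant messenger RNAs. In bulk samples such as these, more RNA per cell and more cells of a kind cannot be told apart. Of the 42 genes, 33 had their highest value in KO refed and 25 their lowest in WT mock cells, as the map of the genes by group shows. The same counts over all features were not made, so these are not set apart from the shifts of all features.

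**Figure D1:**
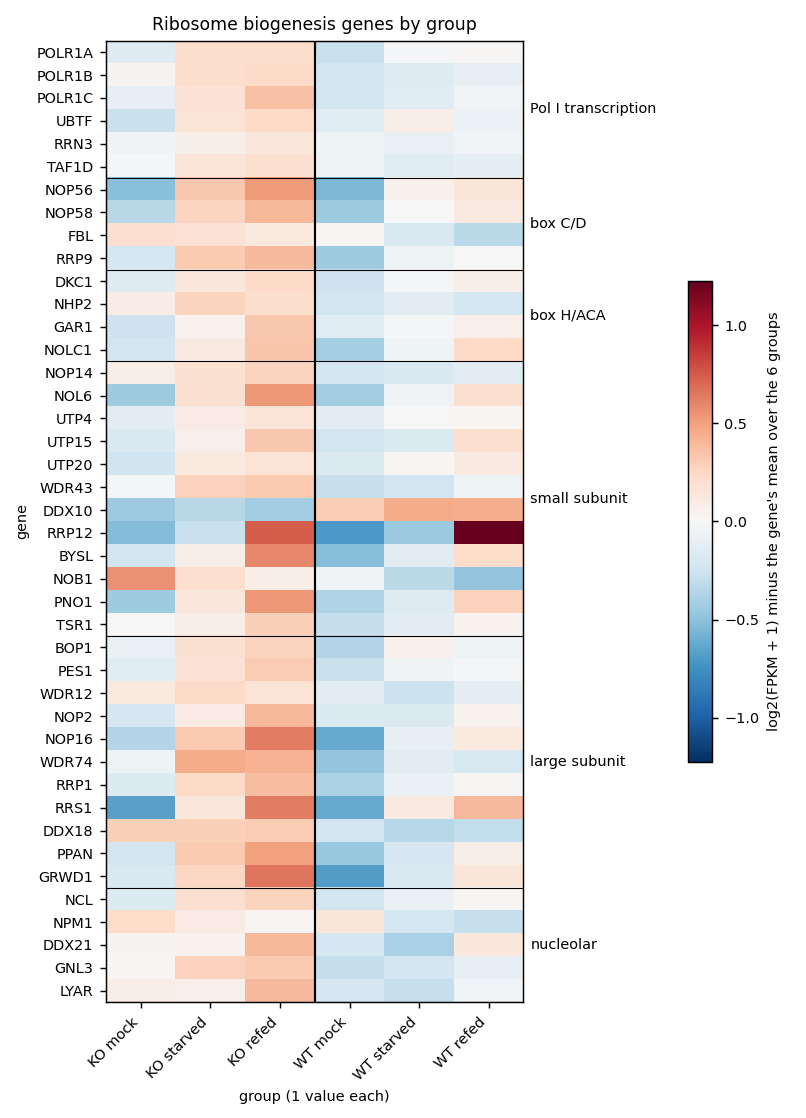
The 42 ribosome biogenesis and nucleolar genes (rows, ordered by role) in the 6 groups (columns, 1 value each), coloured by log2(FPKM + 1) minus the mean of that gene over the 6 groups. Most rows are bluer in mock and redder in refed cells within each genotype, and DDX10, NOB1, FBL and NPM1 are rows that do not.

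Short stretches around the transcription start of members holding an E-box are shown first, because the genes below are compared as a group whose described regulator binds these letters. Promoter windows of RefSeq (build GRCh38.p14, 250 bases before to 50 after the start) were given for 36 of the 42 genes. The letters CACGTG, which read the same on both strands, were in 11 of the 36 windows (30.6%), against 10.3% of 10342 windows of compared features and 7.43% of all 27305 windows. In 9 of these 11 the match lay after the start or, for RRP9, across it with its last base after the start (25.0% of the 36 windows, against 1.55% of the 10342), and in 2 it lay before the start (5.56% against 9.02%). The 30 bases around each match, on the gene's strand with the match in capitals, are in order of the difference between refed and mock cells:
PNO1 (chr2:68157885-68157914, + strand): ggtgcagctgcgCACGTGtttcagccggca
NOL6 (chr9:33473894-33473923, - strand): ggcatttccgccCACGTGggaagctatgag
BYSL (chr6:41921515-41921544, + strand): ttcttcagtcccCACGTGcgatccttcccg
RRP9 (chr3:51941892-51941921, - strand): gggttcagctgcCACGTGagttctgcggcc
NOP2 (chr12:6568242-6568271, - strand): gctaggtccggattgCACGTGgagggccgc
PES1 (chr22:30591880-30591909, - strand): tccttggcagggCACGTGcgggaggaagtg
UTP20 (chr12:101280083-101280112, + strand): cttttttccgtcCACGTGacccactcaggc
WDR43 (chr2:28894658-28894687, + strand): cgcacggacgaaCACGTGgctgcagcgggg
UTP4 (chr16:69132621-69132650, + strand): agagcgcgcgcgCACGTGgggccggggcgg
NOP14 (chr4:2963374-2963403, - strand): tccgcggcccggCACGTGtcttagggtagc
FBL (chr19:39846356-39846385, - strand): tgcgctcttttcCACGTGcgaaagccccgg

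The related letters CACGCG, or CGCGTG on the other strand, were in 14 of the 36 windows (38.9%), against 18.4% of compared features. FBL, NOL6 and NOP14 held both kinds. CATGTG or CACATG was in 0 of the 36 windows, against 6.59% of compared features, and GGAAG or CTTCC, part of ETS factor motifs, in 29 (80.6%) against 76.3%. For the 4 genes with CACGCG or CGCGTG before the start that rose in refed cells against mock (below), 80 bases of the promoter are shown with the match in capitals:
GRWD1 (chr19:48445763-48445842, + strand): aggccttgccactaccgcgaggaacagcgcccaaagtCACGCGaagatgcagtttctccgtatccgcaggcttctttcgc
NOL6 (chr9:33474095-33474174, - strand): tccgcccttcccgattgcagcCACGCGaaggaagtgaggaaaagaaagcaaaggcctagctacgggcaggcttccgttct
RRP1 (chr21:43789497-43789576, + strand): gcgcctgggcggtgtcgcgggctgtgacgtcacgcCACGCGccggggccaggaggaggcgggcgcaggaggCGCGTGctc
DDX21 (chr10:68956035-68956114, + strand): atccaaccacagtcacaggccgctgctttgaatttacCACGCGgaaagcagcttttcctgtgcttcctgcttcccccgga
The RRP1 stretch ends at the base before the start and holds 2 matches. The median log2 difference of refed over mock was 0.36 in the 11 genes with CACGTG and 0.33 in the 25 without, and 0.31 in the 14 with CACGCG and 0.36 in the 22 without. A match is only a description of the letters, and no binding data were used here.

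Each pair of conditions was compared once as an average, with limma fitted to the 6 values with genotype and state as additive terms. Its adjusted p (Benjamini-Hochberg over 13456 features, threshold 0.05) measures how even a difference was over the states or genotypes, not how it compares with replicate error. The words rose and fell are kept for genes that passed it. Single comparisons of 1 value with 1 value have no test.

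What serum withdrawal does to these transcripts was asked by setting starved cells against mock cells. Averaged over the genotypes 13 of the 42 genes rose and 1, NOB1, fell, where 5.83% of all features rose and 19.4% fell. The median difference of the 42 was 0.23 on the log2 scale, against -0.13 for all features, and 35 genes were above 0. The genes that rose were RRS1 (log2 0.77, SE 0.09, adjusted p = 0.0177), NOP56 (0.72), NOP16 (0.60), NOP58 (0.51), NOL6 (0.50), GRWD1 (0.47), RRP9 (0.45), WDR74 (0.42), PPAN (0.41), RRP1 (0.36), NOLC1 (0.35), BYSL (0.34) and POLR1A (0.32). With median-ratio scaling 27 rose and 0 fell (13.7% and 16.2% of all features), the 13 genes among them, and with upper-quartile scaling 28 rose and 0 fell (14.6% and 15.3%). Leaving out KO mock gave 8 rises, and leaving out any one of the other 5 values gave 0, as did keeping all low-value features. The share of all features is not given for the fits with a value left out. In KO cells alone, a comparison that does not use WT mock, 5 genes were at least 1.5-fold higher in starved than in mock cells (3.49% of all features were) and 0 were lower (5.96%), and the median was 0.30. In WT cells alone 2 were higher (3.14%) and 0 lower (13.9%), with a median of 0.15.

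Refed cells were compared with starved cells to ask what the return of serum does. No member passed the threshold (0 rose and 0 fell, by limma with and without a variance trend), where 0.773% of all features rose and 0.052% fell. At an unadjusted p under 0.05, 12 of the 42 genes were higher and 0 lower, where 6.44% of all features were higher. The lowest adjusted p was that of RRP12 (log2 1.35, SE 0.19, adjusted p = 0.0888). The median difference was 0.10, against -0.01 for all features, and 34 of the 42 were above 0. RRP12 was also the one gene at least 1.5-fold higher in refed than in starved cells in each genotype, where 3.5% of all features in KO and 3.04% in WT were, and 0 genes were lower (0.795% and 1.27%).

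Over the whole course the refed cells stood above mock cells. Averaged over the genotypes 20 of the 42 genes rose and 1, NOB1, fell, where 8.1% of all features rose and 21.2% fell. The median difference was 0.35, against -0.12 for all features. The 20 were the 13 named for starvation and DDX21, DKC1, PES1, PNO1, RRP12, TSR1 and UTP15. The differences were largest for RRP12 (log2 1.60, SE 0.19, adjusted p = 0.0134), RRS1 (log2 1.16, SE 0.09, adjusted p = 0.0119), NOP56 (0.86), NOP16 (0.86), GRWD1 (0.84), PNO1 (0.81) and NOL6 (0.80). With median-ratio scaling 34 rose and 1 fell (16.4% and 17.3% of all features), the 20 among them, and with upper-quartile scaling 34 rose and 1 fell (15% and 19.1%). Leaving out KO mock gave 16 rises and 2 falls, and leaving out any one of the other 5 values gave 0 rises. For these fits with a value left out the share of all features is not given. At 1.5-fold, 12 genes were higher in refed than in mock cells in KO (6.7% of all features) and 9 in WT (4.33%), and 0 were lower (5.84% and 15.2%), with medians of 0.42 and 0.27 against -0.03 and -0.21 for all features. The comparisons with mock share their mock values, so the starved and the refed results are not independent of each other.

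KO cells were compared with WT cells to ask what the loss of KDM3A does. Averaged over the states 19 of the 42 genes rose and 1, DDX10, fell, where 28.7% of all features rose and 4.58% fell. The median difference was 0.24, against 0.16 for all features, a gap of 0.08. With median-ratio scaling 13 rose and 1 fell (15.2% and 9.29% of all features), and with upper-quartile scaling 5 rose and 1 fell (10.9% and 12.6%). The 5 that rose under all 3 scalings were DDX18 (log2 0.59), NOB1 (0.57), WDR74 (0.55), GRWD1 (0.48) and NOP16 (0.40). The rises of BYSL, DDX21, FBL, RRP1, TSR1 and WDR12 were lost under both rescalings. Those of GNL3, LYAR, NHP2, NOP14, POLR1B, PPAN, RRP9 and WDR43 were lost with upper-quartile scaling alone. Without WT mock, and likewise without KO mock, 28 rose and 1 fell. Without any one of the 4 starved or refed values, 0 passed. For this comparison, leaving out the KO or the WT value of a state gives the same fit, because the value left in that state is then fitted exactly. These are therefore 1 check per state. The share of all features is not given for fits with a value left out, so these counts cannot be set beside it. By sign alone, 33 of the 42 were higher in KO in all 3 states, against 7304 of the 13456 features, and DDX10 was lower in all 3, as were 1750 features. At 1.5-fold there was 1 gene higher and 1 lower in mock cells (5.92% and 5.8% of all features), 2 and 1 in starved cells (8.45% and 3.11%) and 2 and 1 in refed cells (11.6% and 2.8%).

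**Figure D2:**
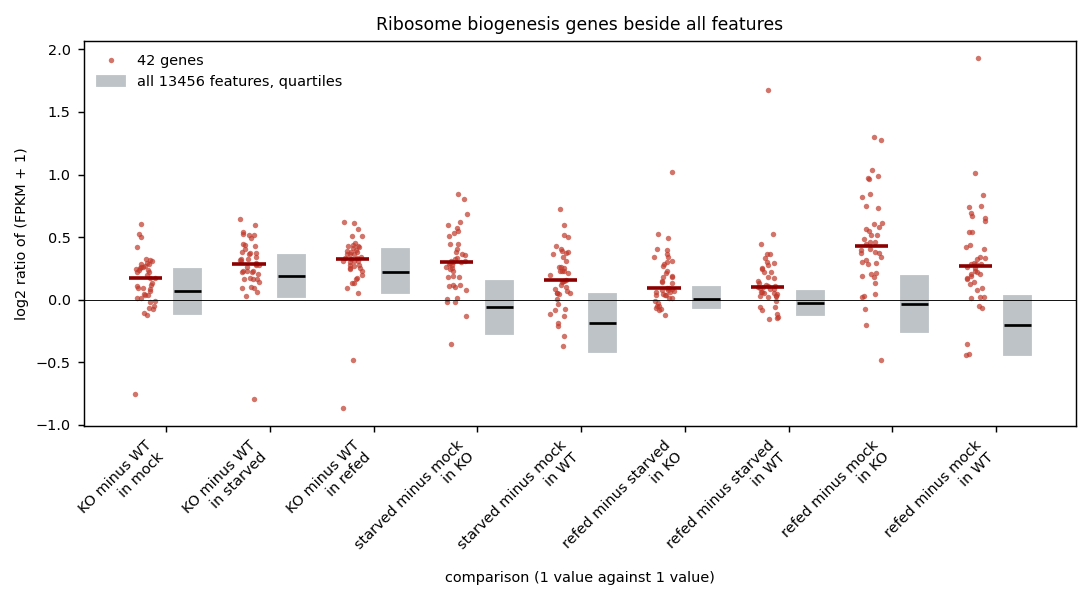
The log2 ratio of (FPKM + 1) of the 42 genes (red points, dark line at their median) in each comparison of 1 value with 1 value, beside the quartiles and median of all 13456 features (grey box, black line). For refed minus mock the medians are 0.42 in KO and 0.27 in WT, above the grey boxes, while for KO minus WT the red and black lines lie close to each other.

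The genes were then read by role, beginning with RNA polymerase I. POLR1A, the largest subunit of the enzyme, was at 3.01, 4.22 and 4.19 FPKM in KO cells (mock, starved, refed), against 2.71, 3.44 and 3.52 FPKM in WT. On the deposited scale it alone of the 6 genes of this role rose in starved and in refed cells against mock (log2 0.32, SE 0.07, adjusted p = 0.0403 and log2 0.33, SE 0.07, adjusted p = 0.0353). Of all features 5.83% rose in starved and 8.1% in refed over mock cells. POLR1B, the second-largest subunit, was at 5.99, 6.96 and 7.05 FPKM in KO and 4.86, 5.15 and 5.39 FPKM in WT, and POLR1C, a subunit shared with RNA polymerase III, at 42.4, 51.6 and 58.7 FPKM in KO and 38.5, 40.9 and 44.5 FPKM in WT. POLR1B was higher in KO in each state and rose there (log2 0.32, SE 0.05, adjusted p = 0.0189), also after median-ratio but not after upper-quartile rescaling. POLR1C was higher in refed than in mock cells in both genotypes, by 1.38-fold in KO and 1.16-fold in WT, and did not pass (log2 0.33, SE 0.10, adjusted p = 0.0613). With median-ratio and with upper-quartile scaling POLR1B, POLR1C and UBTF rose as well in both comparisons with mock (POLR1C at adjusted p = 0.0258 for starved and 0.0116 for refed with the median ratio).

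Of the 3 genes for factors that bring the enzyme to the ribosomal RNA genes, 0 passed in a comparison with mock on the deposited scale, while under both rescalings UBTF rose in starved and refed cells and RRN3 in refed cells. UBTF, which binds and opens those genes, was at 10.7, 14.9 and 15.7 FPKM in KO cells (mock, starved, refed), against 11.8, 14.0 and 12.5 FPKM in WT. The WT values peak in starved cells and the KO values in refed cells, and the order of the genotypes changes with the state. RRN3, which carries the polymerase to the promoter and responds to growth signals in mammalian cells, was at 11.6, 12.7 and 13.3 FPKM in KO and 11.5, 11.2 and 11.7 FPKM in WT, a span of at most 1.15-fold within a genotype. RRN3 has near-identical pseudogenes, and how the authors' counting treated them is not given, so its value is uncertain. TAF1D, a subunit of the promoter selectivity factor, was at 40.0, 45.5 and 46.7 FPKM in KO and 38.9, 36.6 and 37.4 FPKM in WT. On the deposited scale its starved and refed cells were thus above mock in KO and below mock in WT. For refed over mock the adjusted p was 0.127 for UBTF, 0.347 for RRN3 and 0.570 for TAF1D, against 0.0271, 0.0336 and 0.0606 after median-ratio rescaling.

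The box C/D snoRNPs, which guide methylation of ribosomal RNA, were split. NOP56, a core protein of these particles, was at 71.7, 129 and 148 FPKM in KO cells (mock, starved, refed), against 69.8, 106 and 113 FPKM in WT. In both genotypes starved and refed cells lay well above mock, by 2.06-fold for KO refed and 1.62-fold for WT refed over mock (log2 0.86, SE 0.11, adjusted p = 0.0148). NOP58, its paralog in the same particle, was at 36.6, 56.0 and 62.2 FPKM in KO and 34.3, 46.5 and 50.3 FPKM in WT. It followed the same order mock, starved, refed in both genotypes (log2 0.51, SE 0.09, adjusted p = 0.0257 for starved and log2 0.64, SE 0.09, adjusted p = 0.0153 for refed over mock). FBL, the methyltransferase fibrillarin of the same particle, was at 295, 291 and 280.2 FPKM in KO and 262, 226 and 205 FPKM in WT. On the deposited scale its levels ran the other way, highest in mock and lowest in refed in both genotypes. The refed over mock difference did not pass (log2 -0.21, SE 0.11, adjusted p = 0.198). Its averaged starved over mock difference changed sign under both rescalings, from log2 -0.12 to 0.007 with the median ratio. FBL was higher in KO in each state (log2 0.33, SE 0.09, adjusted p = 0.0496), a call that was lost under both rescalings. RRP9, which belongs to the U3 particle needed for small subunit cuts, was at 34.8, 50.9 and 53.7 FPKM in KO and 29.8, 38.9 and 40.6 FPKM in WT and rose in starved and refed cells (0.45 and 0.52). So 3 of the 4 genes of this role rose in starved and in refed over mock cells, and the catalytic member did not. Of all features 5.83% rose in starved and 8.1% in refed over mock cells.

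**Figure D3:**
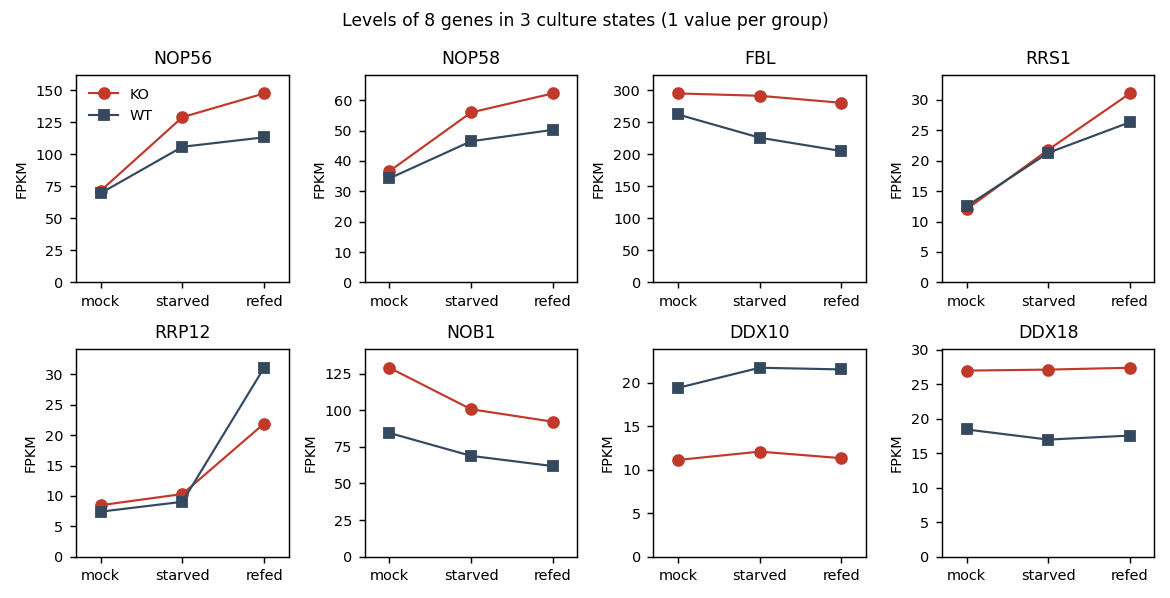
FPKM of 8 of the genes in mock, starved and refed cells, KO in red circles and WT in dark squares, 1 value per group, each axis starting at 0. NOP56, NOP58 and RRS1 climb over the 3 states in both genotypes, FBL and NOB1 are highest in mock, RRP12 is high in refed cells alone, and the genotypes lie apart in every state for DDX10 (lower in KO) and DDX18 and NOB1 (higher in KO).

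The box H/ACA snoRNPs guide the change of uridine to pseudouridine. DKC1, the pseudouridine synthase dyskerin, was at 35.2, 43.6 and 46.6 FPKM in KO cells (mock, starved, refed), against 32.9, 38.7 and 41.5 FPKM in WT, and it rose in refed over mock cells (log2 0.36, SE 0.07, adjusted p = 0.0299). NOLC1, a nucleolar chaperone of snoRNPs, was at 51.3, 65.0 and 76.2 FPKM in KO and 44.6, 57.8 and 71.5 FPKM in WT, in the order mock, starved, refed in both genotypes. It rose in starved (0.35) and in refed cells (log2 0.62, SE 0.08, adjusted p = 0.0142). GAR1 and NHP2 are the small proteins of the particle. GAR1 was at 21.0, 25.9 and 31.9 FPKM in KO and 22.7, 24.8 and 26.3 FPKM in WT, lower in KO in mock cells and higher in KO in the other 2 states, and it rose in starved and refed cells under both rescalings alone. NHP2 was at 176, 199.7 and 193 FPKM in KO and 140.5, 151 and 143 FPKM in WT. It rose in KO (log2 0.39, SE 0.07, adjusted p = 0.0214), also after median-ratio but not after upper-quartile rescaling. Its states were within 1.13-fold of mock, though starved over mock passed under both rescalings. As a group these 4 genes had a median KO over WT difference of 0.15, against -0.01 with median-ratio and -0.07 with upper-quartile scaling, so its direction is not fixed.

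The small subunit list has 12 genes, of which 6 rose and 1 fell in refed over mock cells (10 and 1 under either rescaling). Of all features 8.1% rose and 21.2% fell, against 16.4% and 17.3% with median-ratio and 15% and 19.1% with upper-quartile scaling. RRP12, an export and processing factor of pre-ribosomes, was at 8.48, 10.3 and 21.9 FPKM in KO cells (mock, starved, refed), against 7.42, 9.04 and 31.1 FPKM in WT. Mock and starved cells were close, and refed cells stood apart, 2.12-fold above starved in KO and 3.44-fold in WT. It is the one gene here whose refed level was lower in KO than in WT while its mock and starved levels were higher. PNO1, which binds the end of the maturing small subunit RNA, was at 9.40, 14.5 and 19.4 FPKM in KO and 9.94, 11.6 and 16.2 FPKM in WT, and it rose in refed over mock cells (log2 0.81, SE 0.11, adjusted p = 0.0153). BYSL, bystin, was at 15.6, 19.5 and 28.4 FPKM in KO and 12.6, 16.8 and 21.9 FPKM in WT and rose in starved and refed cells (0.34 and 0.79). NOL6, a protein of the large processing complex around U3, was at 5.15, 8.48 and 11.0 FPKM in KO and 5.21, 7.07 and 8.57 FPKM in WT, with KO and WT nearly equal in mock cells and KO higher in the other 2 states.

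UTP15 and UTP20 were among the lowest genes of all. UTP15, of the complex that links polymerase I transcription with processing, was at 2.20, 2.79 and 3.57 FPKM in KO cells (mock, starved, refed), against 2.11, 2.22 and 3.16 FPKM in WT and rose in refed over mock cells (log2 0.47, SE 0.09, adjusted p = 0.0242). UTP20, a large scaffold protein, was at 1.15, 1.76 and 1.84 FPKM in KO and 1.25, 1.58 and 1.74 FPKM in WT, higher in starved and refed than in mock cells in both genotypes but not past the threshold (adjusted p = 0.0620 for refed over mock), which it passed in both comparisons under both rescalings (0.0432 for starved and 0.0270 for refed with the median ratio). At levels this near 1 FPKM the 1 added before taking logs makes the log2 difference smaller than the ratio of the FPKM values. UTP4, cirhin, was at 33.7, 39.6 and 41.3 FPKM in KO and 33.5, 36.9 and 37.7 FPKM in WT, and WDR43, of the same complex, at 22.1, 27.6 and 28.3 FPKM in KO and 18.3, 19.0 and 21.6 FPKM in WT. Both followed the order mock, starved, refed in each genotype without passing on the deposited scale (adjusted p = 0.0874 and 0.0755 for refed over mock), and both rose in starved and refed cells under both rescalings (0.0162 and 0.0186 with the median ratio). WDR43 rose in KO (log2 0.39, SE 0.07, adjusted p = 0.0230), a call lost after upper-quartile rescaling.

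NOP14, a scaffold of the small subunit precursor, was at 20.1, 21.6 and 23.1 FPKM in KO cells (mock, starved, refed), against 16.0, 16.5 and 17.1 FPKM in WT. It rose in KO (log2 0.36, SE 0.06, adjusted p = 0.0160), a call lost after upper-quartile rescaling. It was within 1.15-fold of mock in each genotype, though its refed over mock difference passed under both rescalings (adjusted p = 0.0283 with the median ratio). TSR1, a late factor resembling a GTPase, was at 19.0, 20.2 and 23.5 FPKM in KO and 15.4, 17.2 and 19.7 FPKM in WT and rose in refed over mock cells (log2 0.31, SE 0.07, adjusted p = 0.0339). NOB1, the endonuclease that makes the last cut of the small subunit RNA, was at 129, 101 and 92.2 FPKM in KO and 84.5, 68.9 and 61.9 FPKM in WT. Its levels were highest in mock and lowest in refed in both genotypes (log2 -0.46, SE 0.08, adjusted p = 0.0210), and KO stood above WT in every state (log2 0.57, SE 0.06, adjusted p = 0.00936). The fall in starved over mock cells (log2 -0.32, SE 0.08, adjusted p = 0.0469) was lost under both rescalings, while the fall in refed cells and the rise in KO were kept.

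DDX10, a DEAD-box helicase of the small subunit path, was the one member that fell in KO. It was at 11.1, 12.1 and 11.3 FPKM in KO cells (mock, starved, refed), against 19.4, 21.7 and 21.5 FPKM in WT. The KO values were 0.573, 0.556 and 0.526 of WT in mock, starved and refed cells (log2 -0.81, SE 0.06, adjusted p = 0.00416), and the 3 states of a genotype differed little. By sign alone, 1750 of the 13456 features were lower in KO in all 3 states, which are not replicates of a genotype. The highest KO value of DDX10 was 12.1 FPKM and its lowest WT value 19.4 FPKM. EXPH5 and ZC3H12C, taken by name as genes on either side of it on the chromosome after the values of DDX10 were seen, differed in direction. Their distance from DDX10, and whether other measured genes lie between, are not given here. EXPH5 was at 2.32, 1.23 and 1.24 FPKM in KO and 1.74, 0.963 and 1.14 FPKM in WT, higher in KO in each state. ZC3H12C was at 0.893, 0.963 and 1.06 FPKM in KO and 1.30, 1.40 and 1.65 FPKM in WT, lower in KO in each state, and both lie near the filter of 1 FPKM.

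Of the 11 genes for the large subunit, 7 rose in refed over mock cells and 0 fell (9 and 0 under either rescaling), with a median of 0.42. Of all features 8.1% rose and 21.2% fell, against 16.4% and 17.3% with median-ratio and 15% and 19.1% with upper-quartile scaling. RRS1, an early assembly factor, was at 12.0, 21.8 and 31.0 FPKM in KO cells (mock, starved, refed), against 12.5, 21.3 and 26.3 FPKM in WT. The genotypes were within 1.02-fold in starved cells, and refed cells were 2.58-fold over mock in KO and 2.10-fold in WT. NOP16, a nucleolar protein of the same path, was at 34.4, 55.8 and 69.3 FPKM in KO and 28.7, 41.3 and 48.4 FPKM in WT and GRWD1, a histone-binding WD-repeat protein of the nucleolus, at 17.5, 24.2 and 32.1 FPKM in KO and 12.1, 17.5 and 22.3 FPKM in WT. Both climbed over the 3 states in each genotype and both were higher in KO in every state (log2 0.40, SE 0.08, adjusted p = 0.0239, and log2 0.48, SE 0.06, adjusted p = 0.00969). PPAN, a large subunit factor, was at 17.2, 25.6 and 29.2 FPKM in KO and 14.4, 17.5 and 21.5 FPKM in WT. PPAN rose in starved, refed and KO cells, with the rise in KO lost after upper-quartile rescaling. It lies next to P2RY11 and is known to form a read-through transcript with it, and how such reads were counted is not given.

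BOP1, PES1 and WDR12 form the PeBoW complex, which is needed to process the large subunit RNA. BOP1 was at 50.1, 61.3 and 65.1 FPKM in KO cells (mock, starved, refed), against 41.5, 55.4 and 51.1 FPKM in WT, peaking in starved cells in WT, and missed the threshold for starved and for refed cells (adjusted p = 0.0503 and 0.0505). PES1, pescadillo, was at 47.4, 59.7 and 65.4 FPKM in KO and 43.5, 51.1 and 52.1 FPKM in WT and rose in refed over mock cells (log2 0.36, SE 0.09, adjusted p = 0.0432). WDR12 was at 18.6, 20.3 and 19.3 FPKM in KO and 15.6, 14.1 and 15.7 FPKM in WT, with no common direction over the states (log2 0.03, SE 0.09, adjusted p = 0.808). Under both rescalings BOP1 also rose, in starved and in refed cells (adjusted p = 0.0254 and 0.0227 with the median ratio), PES1 rose in both as well, and WDR12 did not pass.

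WDR74 and RRP1, both tied to early nucleolar precursors, rose in starved and in refed over mock cells. WDR74 was at 48.7, 69.8 and 68.6 FPKM in KO cells (mock, starved, refed), against 36.1, 45.9 and 44.2 FPKM in WT and RRP1 at 22.3, 29.8 and 33.0 FPKM in KO and 18.9, 23.7 and 25.4 FPKM in WT. WDR74 peaked in starved cells in both genotypes and was 1.35, 1.52 and 1.55 times the WT level in KO mock, starved and refed cells (log2 0.55, SE 0.07, adjusted p = 0.0125). NOP2, a cytosine methyltransferase of the large subunit RNA, was at 28.0, 34.9 and 43.2 FPKM in KO and 28.5, 28.6 and 33.4 FPKM in WT, nearly equal in the genotypes in mock cells and higher in KO in the other 2 states. DDX18, a helicase, was at 27.0, 27.2 and 27.4 FPKM in KO and 18.5, 17.0 and 17.6 FPKM in WT. It differed little over the states within each genotype, and its KO values were 1.46, 1.60 and 1.56 times those in WT (log2 0.59, SE 0.06, adjusted p = 0.00743), the highest rise in KO of the 42.

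The 5 abundant or multifunctional nucleolar proteins did not move as a block. NPM1, the chaperone nucleophosmin, was at 1073, 982 and 931 FPKM in KO cells (mock, starved, refed), against 1015, 786 and 752 FPKM in WT, highest in mock and lowest in refed in both genotypes, without passing (log2 -0.32, SE 0.11, adjusted p = 0.0981). NPM1 has many processed pseudogenes, and reads shared with them make its value uncertain. NCL, nucleolin, was at 194, 251 and 265 FPKM in KO and 186, 206 and 222 FPKM in WT, in the order mock, starved, refed in both (log2 0.35, SE 0.10, adjusted p = 0.0599), and rose in starved and refed cells under both rescalings. GNL3, the nucleolar GTP-binding protein nucleostemin, was at 100.3, 121 and 124 FPKM in KO and 80.7, 83.9 and 92.2 FPKM in WT and rose in KO (log2 0.42, SE 0.08, adjusted p = 0.0212). DDX21, a helicase that binds ribosomal RNA genes and snoRNAs, was at 31.8, 32.0 and 41.6 FPKM in KO and 26.8, 23.4 and 34.2 FPKM in WT, with refed cells above the other 2 states in each genotype (log2 0.36, SE 0.09, adjusted p = 0.0402). LYAR, a cell growth regulating zinc finger protein, was at 27.9, 27.6 and 35.1 FPKM in KO and 22.7, 21.5 and 25.7 FPKM in WT and rose in KO (log2 0.35, SE 0.06, adjusted p = 0.0199). Its starved cells were the lowest in both genotypes on the deposited scale. Under both rescalings GNL3 rose also in starved and refed cells and LYAR in refed cells. The rises of GNL3 and LYAR in KO were lost after upper-quartile rescaling.

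Over the 3 states, 33 of the 42 genes followed the order mock, starved, refed from low to high in KO and 28 did in WT. FBL, NOB1 and NPM1 followed the reverse order in both genotypes. Starved cells were the highest for 5 genes in each genotype, with NHP2, DDX10 and WDR74 among them in both. Starved cells were the lowest for LYAR in KO and for LYAR, RRN3, TAF1D, WDR12, DDX18 and DDX21 in WT. These counts read only the sign of differences between single values on the deposited scale. The averaged starved over mock difference of FBL, LYAR, WDR12, DDX18 and DDX21 changed from below to above 0 under both rescalings. Their orders therefore depend on the scale. The same orders were not counted over all features, so the counts are not set apart from the shifts of all features.

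Directions were compared between the genotypes by sign. Starved over mock, 33 genes were higher in both genotypes, 4 lower in both and 5 opposite, and refed over mock the counts were 37, 3 and 2. Over all 13456 features they were 3321, 7120 and 2794 for starved over mock and 3278, 6832 and 3117 for refed over mock. The KO response exceeded the WT response by a median of 0.16 for starved over mock and 0.13 for refed over mock on the log2 scale, where the same medians over all features were 0.12 and 0.16. The refed over starved response differed by a median of 0.03, against 0.04 for all features. These signs and responses are those of the deposited scale, and small ones can change sign after rescaling. These differences between genotypes have no test, because the fit uses them as its error. RRP12 was the farthest from equal, with refed over mock at 1.27 in KO and 1.93 in WT, and UBTF the farthest on the other side, with 0.52 in KO and 0.08 in WT.

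**Figure D4:**
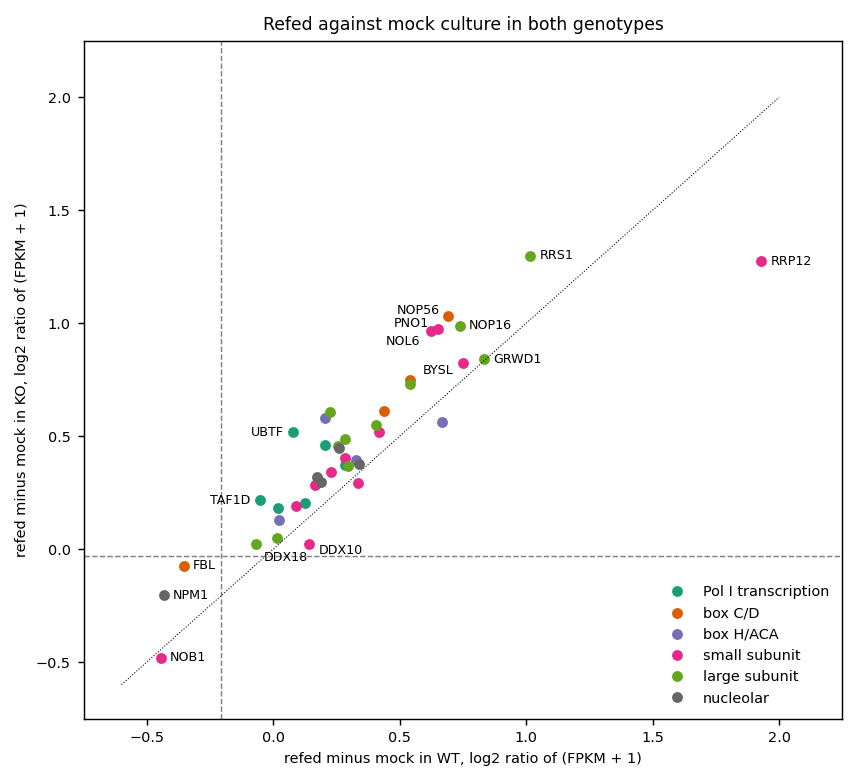
The log2 ratio of (FPKM + 1) of refed over mock cells for the 42 genes, in KO (vertical axis) against WT (horizontal axis), coloured by role. The dotted line marks equal responses and the dashed lines the medians of all features (-0.03 in KO, -0.21 in WT). FBL, NPM1 and NOB1 are below 0 in both genotypes, RRP12 lies far below the dotted line and UBTF above it.

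A wider list of 142 other ribosome biogenesis genes was read beside the 42, of which 141 were found (8 under an older symbol) and compared. In starved over mock cells 16 rose and 5 fell, where 5.83% of all features rose and 19.4% fell. In refed over mock cells 22 rose and 4 fell (8.1% and 21.2%), and in refed over starved cells 0 did either way (0.773% and 0.052%). In KO over WT 69 rose and 1 fell (28.7% and 4.58%). Their medians were 0.04, 0.07, 0.03 and 0.25, where the 42 had 0.23, 0.35, 0.10 and 0.24. With median-ratio scaling 50 rose and 4 fell in starved over mock cells (13.7% and 16.2% of all features) and 64 rose and 1 fell in refed over mock cells (16.4% and 17.3%). Refed over starved 1 rose. In KO over WT 23 rose and 1 fell, or 16.3% and 0.709% of the 141, where 15.2% and 9.29% of all features did, so the rising share was near that of all features. The wider genes thus shared the sign of the 42 with smaller medians for the states, and the difference between the lists was not tested.

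By role, the wider large subunit list had 14 of 51 genes rising and 1 falling in refed over mock cells, the small subunit list 4 of 44 and 0, the processing and exosome list 3 of 20 and 0, the snoRNP list 1 of 12 and 2, and the polymerase I list 0 of 14 and 1, where 8.1% of all features rose and 21.2% fell. UTP14A, a small subunit processome protein, was at 6.33, 13.1 and 14.3 FPKM in KO cells (mock, starved, refed), against 7.77, 12.2 and 12.1 FPKM in WT (log2 0.82, SE 0.13, adjusted p = 0.0194 for refed over mock). PAK1IP1, which acts in large subunit assembly, was at 12.3, 18.5 and 23.9 FPKM in KO cells (mock, starved, refed), against 12.6, 12.9 and 18.9 FPKM in WT (log2 0.73, SE 0.14, adjusted p = 0.0260). MRTO4, a large subunit factor, was at 21.5, 31.0 and 34.2 FPKM in KO cells (mock, starved, refed), against 16.2, 22.7 and 24.9 FPKM in WT (log2 0.62, SE 0.07, adjusted p = 0.0130). These 3 had the largest rises, and DDX49, a helicase, was among the 3 largest for starved over mock (log2 0.50, SE 0.07, adjusted p = 0.0191).

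In the other direction NMD3, the adaptor that exports the large subunit, was at 38.8, 24.6 and 25.4 FPKM in KO cells (mock, starved, refed), against 28.8, 18.2 and 22.4 FPKM in WT. It fell in starved (log2 -0.64, SE 0.09, adjusted p = 0.0206) and in refed cells (log2 -0.47, SE 0.09, adjusted p = 0.0291), where the fall in refed cells was lost under both rescalings. POLR1F and TAF1B, a subunit and a promoter factor of polymerase I, fell in starved cells (log2 -0.40 and -0.37), and RUVBL2 and COIL fell in refed over mock cells (-0.39 and -0.33, COIL lost under both rescalings). Refed over starved, the highest were SBDS (0.56), PAK1IP1 (0.44) and NAF1 (0.42) and the lowest SENP3, COIL and PIH1D1 (-0.16, -0.16 and -0.15), none past the threshold. Between genotypes, the helicase gene DDX47 was at 70.0, 51.0 and 54.0 FPKM in KO cells (mock, starved, refed), against 34.3, 30.6 and 33.6 FPKM in WT (log2 0.80, SE 0.09, adjusted p = 0.00951), and EXOSC7, an exosome subunit (0.69), and NLE1 (0.67) also rose in KO. RPP40, a subunit of ribonuclease P, was the one that fell, at 3.86, 4.75 and 5.18 FPKM in KO cells (mock, starved, refed), against 6.27, 8.49 and 8.59 FPKM in WT (log2 -0.64, SE 0.06, adjusted p = 0.00593). RPF1 and TSR2 were next, at -0.06 and -0.01, and did not pass.

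MYC itself, a described regulator of many of these genes, was at 122, 154 and 139 FPKM in KO cells (mock, starved, refed), against 77.9, 117 and 146 FPKM in WT. In WT it followed the order mock, starved, refed, and in KO it was highest in starved cells. It was higher in KO in mock and starved cells and lower in KO in refed cells. No averaged difference of MYC passed (adjusted p = 0.159 for KO over WT, 0.135 for starved over mock and 0.0885 for refed over mock).

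A further property that the choice of genes did not use is the hosting of small nucleolar RNAs, which in human cells are mostly cut from introns. In the GENCODE release 29 annotation 10 of the 42 genes (23.8%) held at least 1 snoRNA gene on the same strand within their bounds, against 216 of 12159 protein-coding features compared (1.78%). The hosts were TAF1D with 8, NOP56 and GNL3 with 5 each, NOP58 with 4, NCL and WDR43 with 3 each, DKC1, TSR1 and PPAN with 2 each and POLR1C with 1. Of these hosts NOP56, NOP58 and PPAN rose in starved cells, and DKC1 and TSR1 rose as well in refed over mock cells. TAF1D, with the most snoRNA genes, was among the least changed (log2 0.08, SE 0.10, adjusted p = 0.570). The share of a gene's reads that came from its snoRNAs cannot be read from gene-level FPKM.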

How the data were processed

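Polyadenylated RNA of HCT116 cells was sequenced, per the labels, and reads were trimmed with cutadapt, checked with FastQC and aligned to hg19 with TopHat2, per the submitters' processing notes (no versions, no role of each tool and no order are given there). The authors deposited FPKM (fragments divided by gene length and library size) in 6 tables of 26372 symbols with 1 column per group. The program and gene annotation behind the FPKM, and how genes with near-identical copies or overlapping genes were counted, are not given in the sources used here. Columns of values not used numbered 0. Read counts were not used, and the steps between low values gave no common unit (2.31% to 4.83% of low genes shared the most frequent ratio in 14 pairs of groups, 12.6% in WT starved with WT refed), so depth is unknown and no counting interval is given.

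Values were taken as log2(FPKM + 1), which understates differences of genes with low values, for the 13456 features that reached 1 FPKM in any group (406 of them short RNA features). limma 3.58.1 (R 4.3.3, variance trend) fitted genotype and state to the 6 values, with Benjamini-Hochberg adjustment over all 13456 features and a threshold of 0.05. The 2 residual degrees of freedom are the interaction of genotype and state. The 4 averaged comparisons have this test, and 9 single comparisons have none and count features at 1.5-fold. A self-test with known shifts on 13050 features recovered 85% of 100 features shifted by 0.5 and 100% of 100 shifted by 1 in KO over WT. It recovered 85% and 100% in starved over mock and 79% and 100% in refed over mock. The noise of the self-test was drawn independently for each value, at a size set by level and not taken from the residuals of these data. These shares are therefore not the recovery to be expected here.

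The members and lists were chosen with earlier results of these data known. All members are named. Of the wider list, the 3 highest and 3 lowest in each averaged comparison that reached 5 FPKM in their higher group are named, and of the endothelial markers the 3 highest in the group with the highest sum. Alternatives were a pseudocount of 0.1, no filter, a filter of 5 FPKM, median-ratio and upper-quartile rescaling, no variance trend, a 2-fold call and leaving out each group. Promoters came from RefSeq (GRCh38.p14) and snoRNA genes from GENCODE release 29. A planned comparison of protein sequences was not made. Python 3.11.15, numpy 2.4.6, pandas 2.3.3 and matplotlib 3.10.9 were used.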

Additional observations from a re-analysis of the deposited data

Results flagged for a closer look

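A gene is listed here where its 2 genotypes, or its 3 states, lay on opposite sides of 0 in the same comparison. Each side is 1 value, and none of these differences was tested. Values are log2 ratios of (FPKM + 1) on the deposited scale. The median-ratio factor was 1.04 for WT mock, against 0.91 for WT starved and 0.89 for WT refed. Dividing by these factors raises WT starved and WT refed against WT mock. The small WT falls from mock listed below therefore need not keep their sign after rescaling.

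Starved over mock, 5 genes were higher in KO and lower in WT. The KO response exceeded the WT response by 0.27 for TAF1D, 0.25 for WDR12, 0.20 for DDX21, 0.16 for RRN3 and 0.12 for DDX18. Refed over mock, TAF1D (0.27) and DDX18 (0.089) did the same. Refed over starved, UBTF (0.22) and BOP1 (0.20) were higher in KO and lower in WT, while WDR12 (-0.22) and POLR1A (-0.032) were lower in KO and higher in WT. For TAF1D the KO responses were 0.18 (starved) and 0.22 (refed) over mock, against -0.09 and -0.05 in WT.

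Between genotypes, 8 genes changed sides over the states. The highest and the lowest KO over WT difference lay 0.66 apart for RRP12, 0.44 for UBTF, 0.38 for NOP2, 0.38 for GAR1, 0.36 for PNO1, 0.34 for NOL6, 0.28 for RRS1 and 0.16 for UTP20. RRP12 was lower in KO in refed cells (-0.49) and higher in KO by up to 0.17 in the other 2 states. The other 7 were lower in KO in mock cells, by between -0.01 (NOL6) and -0.13 (UBTF), and higher in KO in the starved and refed cells. The median-ratio factors of KO starved (1.04) and KO refed (1.05) are above those of WT in the same states. Rescaling therefore lowers KO over WT there, and the smaller of these differences need not stay above 0.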

How the results depend on the processing

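No paired analysis was possible because the deposited columns carry no replicate number. No called result changed direction under the settings run. Without a call, the KO over WT difference changed sign for 8 of the 42 genes with median-ratio and 13 with upper-quartile scaling (UBTF and DKC1 in both), as did the box H/ACA median. Starved over mock it changed for 5 genes under each (FBL among them). The 71 single-gene calls checked are those of every member, and of the named genes of the wider list, that passed in an averaged comparison. Of these, 71 were kept with a pseudocount of 0.1, 69 without the variance trend and 68 with a filter of 5 FPKM. After median-ratio rescaling 62 were kept, after upper-quartile rescaling 54 and without a filter 38. Each fit with a group left out has 1 residual degree of freedom: 58 calls were kept without KO mock, 23 without WT mock and 0 without any one of the other 4.

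In the counts of the 42 genes, KO over WT gave 5 rising after upper-quartile rescaling, and 0 to 28 rising with 0 to 1 falling when each group was left out. The gap of its median to all features was 0.05 with a filter of 5 FPKM (0.0542) and after upper-quartile rescaling (0.0484). Starved over mock gave 0 rising and 0 falling without a filter, 27 and 0 after median-ratio rescaling, 28 and 0 after upper-quartile rescaling (14.6% and 15.3% of all features), and 0 to 8 rising with 0 to 0 falling when each group was left out. Refed over starved gave 1 rising with a filter of 5 FPKM. Refed over mock gave 34 rising under both rescalings (15.0% and 19.1% of all features rising and falling after upper-quartile rescaling), and 0 to 16 rising with 0 to 2 falling when each group was left out.

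In the single comparisons of KO with WT, 0 members were 1.5-fold higher in mock, starved or refed cells under either rescaling, and 2 were lower in refed cells. The refed gap to all features was 0.0629 with a filter of 5 FPKM and 0.0564 after upper-quartile rescaling. At 2-fold 0 were higher and 0 lower in any state. Starved over mock, 8 were higher in KO after upper-quartile rescaling and 6 in WT under either rescaling, and at 2-fold 0 in KO and 0 in WT. Refed over mock at 2-fold, 3 were higher in KO and 2 in WT. Shares of all features are not given for counts at 2-fold, at 1.5-fold after rescaling or with a group left out. Those counts therefore do not show how the members differ from all features. With 1 value per group and unknown depth, neither replicate nor counting error can be given for any of these.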
